A study of Mus musculus with 620 samples.

Results

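The genes described here are 8 mouse genes of the glucocorticoid response: the receptor gene Nr3c1 and its responsive genes Fkbp5, Tsc22d3, Zbtb16, Sgk1, Ddit4, Mt1 and Mt2. They were taken by symbol, and all 8 were found among the 24850 genes of one deposited table of counts and among the 40840 genes of the other tables. Bulk RNA had been sequenced from 620 tissue libraries of 72 mice in 11 conditions and 3 cohorts named LT, YA and ST. LT comprised 12 tissues and 3 groups: young controls (8 mice), aged controls (9) and aged mice on exenatide (8), a peptide drug that activates the GLP-1 receptor. YA, read from its name as young adult mice, comprised 8 tissues of 8 exenatide-treated mice and 8 controls of that same age class. ST comprised 7 tissues and 6 groups of 5 mice in most tissues: young controls, aged controls, and aged mice with exenatide, with the mTOR inhibitor rapamycin, with hypothalamic knockdown of the GLP-1 receptor, or with both exenatide and the knockdown. Strain, sex, ages, doses, treatment lengths, hour of tissue collection and hormone levels are not stated in these sources.

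Glucocorticoids are steroid hormones of the adrenal cortex that follow a daily rhythm and rise with stress and fasting. They bind the glucocorticoid receptor, encoded by Nr3c1, which leaves its chaperone complex, enters the nucleus and binds glucocorticoid response elements, paired half-sites on facing strands. FKBP5 is a co-chaperone that lowers the receptor's affinity for hormone and so closes a feedback loop. Tsc22d3 encodes GILZ, which restrains NF-kB and AP-1, and Zbtb16 encodes the zinc finger transcription factor PLZF. SGK1 is a kinase that promotes sodium channel retention at the cell surface, and DDIT4, also named REDD1, inhibits the mTORC1 kinase complex. The metallothioneins MT1 and MT2 bind zinc and copper, and their genes respond to metals through the factor MTF1 as well as to glucocorticoids.

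RefSeq windows of 300 bases, from 250 before to 50 after an annotated start (build GRCm38.p6, which is not the build of the counts), were held for 6 of the 8 genes, with none for Zbtb16 and Nr3c1. They were searched on both strands for the glucocorticoid response element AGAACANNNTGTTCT, its looser form GNACANNNTGTNC, which contains every match of the first, and the metal response element TGCACNC or TGCGCNC. The windows of Sgk1, Mt1 and Mt2 are printed because they hold the matches that set these genes apart in sequence, and capitals mark the match named in each line.
Sgk1, chr10:21993640-21993939, plus strand, glucocorticoid response element in capitals: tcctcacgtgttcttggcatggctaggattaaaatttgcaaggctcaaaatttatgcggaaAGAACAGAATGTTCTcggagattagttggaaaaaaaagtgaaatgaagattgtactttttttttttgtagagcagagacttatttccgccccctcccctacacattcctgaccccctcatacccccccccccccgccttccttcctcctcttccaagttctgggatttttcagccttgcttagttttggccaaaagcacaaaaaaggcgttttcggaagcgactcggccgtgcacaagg
Mt1, chr8:94178839-94179138, plus strand, metal response elements in capitals: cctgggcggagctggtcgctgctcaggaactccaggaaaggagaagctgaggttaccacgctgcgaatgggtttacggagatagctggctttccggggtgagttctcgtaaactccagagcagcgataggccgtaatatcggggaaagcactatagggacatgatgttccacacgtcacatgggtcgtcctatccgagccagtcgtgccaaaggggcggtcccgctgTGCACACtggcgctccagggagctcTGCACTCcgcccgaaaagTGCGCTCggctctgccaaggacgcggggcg
Mt2, chr8:94172368-94172667, plus strand, metal response elements on either strand in capitals: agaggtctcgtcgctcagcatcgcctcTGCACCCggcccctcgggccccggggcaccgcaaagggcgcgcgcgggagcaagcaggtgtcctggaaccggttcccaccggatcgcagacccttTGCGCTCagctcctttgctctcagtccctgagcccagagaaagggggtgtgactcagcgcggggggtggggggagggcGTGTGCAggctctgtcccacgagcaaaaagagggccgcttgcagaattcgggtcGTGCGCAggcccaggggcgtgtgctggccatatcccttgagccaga
The full glucocorticoid element in the Sgk1 window began 189 bases before the start, in 1 of the 6 windows listed for that gene. Such a match occurred in 3 of 32851 windows of this length, a share of 0.00913%. The Mt1 window held 3 metal elements and 1 loose glucocorticoid element, which 0.475% of windows hold. The Mt2 window held 4 metal elements, and 3 or more were found in 1.97% of windows, whereas 25.7% hold at least 1. Ddit4 had 1 metal element, another of the 6 Sgk1 windows, not printed here, had 1 on the opposite strand, and the windows of Fkbp5 on chromosome 17 and Tsc22d3 on chromosome X had none of these motifs. A match describes letters only and was not tested as a binding site.

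Total counts per library ranged from 15.2 to 33.8 M in LT (n = 284), from 14.98 to 34.1 M in YA (n = 128) and from 14.6 to 56.2 M in ST (n = 208). Levels are given as counts per M counts of the library (CPM), scaled by the TMM method within cohort and tissue, so levels of different tissues or cohorts are set side by side without a test. Tissue labels matched their defining markers, such as Alb in liver, Umod in kidney, Sftpc in lung and Myh6 in heart, but the hippocampal markers Prox1 and Wfs1 were, in some or all cohorts, higher in another tissue than in hippocampus. The hypothalamus of ST mice was not analysed here, so the knockdown itself has no check in these libraries. In 28 libraries the log2 CPM of genes, relative to the other libraries of the same cohort and tissue, changed by more than 0.2 per doubling of transcript length. That trend serves as a technical measure of a library, whose source was not tested, and is given beside the results it moves with. In bulk tissue, fewer cells of a type and less RNA per cell cannot be told apart.

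Among LT young controls, the 8 genes differed in the tissues where they were most abundant. The receptor gene Nr3c1 varied least, with medians of 246 CPM in lung, 238 in adipose tissue, 216 in spleen, 152 in white blood cells, 138 in colon, 137 in heart, 127 in kidney, 126 in hypothalamus, 113 in skeletal muscle, 108 in frontal cortex, 97.9 in hippocampus and 82.9 in liver. Its highest tissue median was 2.96 times its lowest, and the one gap in that order lay between spleen (lowest 182) and white blood cells (highest 161). All other neighbours in the order overlapped.
Fkbp5 was highest in kidney (median 103 CPM, range 70.0 to 229), colon (102), adipose tissue (92.8), liver (70.6), hippocampus (69.1) and spleen (57.2), and lower in frontal cortex (44.2), skeletal muscle (37.9), white blood cells (36.3), lung (35.2), hypothalamus (33.9) and heart (25.5, range 11.7 to 65.9). Tsc22d3 stood highest in white blood cells (median 557 CPM, range 392 to 908), followed by lung (232), skeletal muscle (231), spleen (209), adipose tissue (164.5), heart (119.5), hypothalamus (96.9), liver (74.5), hippocampus (68.6), frontal cortex (63.1), colon (60.1) and kidney (56.98). Every neighbouring pair of tissues overlapped for both genes.
Zbtb16 had its highest medians in hippocampus (100.4 CPM, range 86.99 to 119), skeletal muscle (99.9), heart (85.3), adipose tissue (83.5) and lung (65.6). It was lower in frontal cortex (37.9), hypothalamus (25.4), white blood cells (16.9), liver (15.5), colon (7.89), kidney (7.77) and spleen (5.05), again with overlap of all neighbours. Sgk1 was highest in skeletal muscle (median 289.5 CPM, range 153 to 412) and lung (142). Colon, heart, kidney, spleen, hippocampus, frontal cortex and adipose tissue lay between 78.8 and 94.3, hypothalamus and white blood cells at 58.8 and 53.2, and liver at 23.5 (range 17.9 to 32.2), with no overlap between liver and white blood cells.
Ddit4 was highest in spleen (median 57.9 CPM, range 43.7 to 150.5) and white blood cells (47.2), and lowest in skeletal muscle (11.2) and liver (5.01, range 2.55 to 14.8), with the other 8 tissues of the order between 14.1 and 32.6. The metallothioneins had the widest spread: Mt1 ran from 308 CPM in hippocampus and 304 in heart through 52.7 in lung, 21.9 in spleen and 17.1 in skeletal muscle to 0.823 in white blood cells. Mt2 ran from 140.1 CPM in hippocampus and 134 in hypothalamus to 6.79 in spleen, 5.69 in skeletal muscle and 0.169 in white blood cells, where 1 of the young LT animals had no count. White blood cells did not overlap the tissue above them for either metallothionein, and Mt1 had a further gap between lung and spleen.

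**Figure D1:**
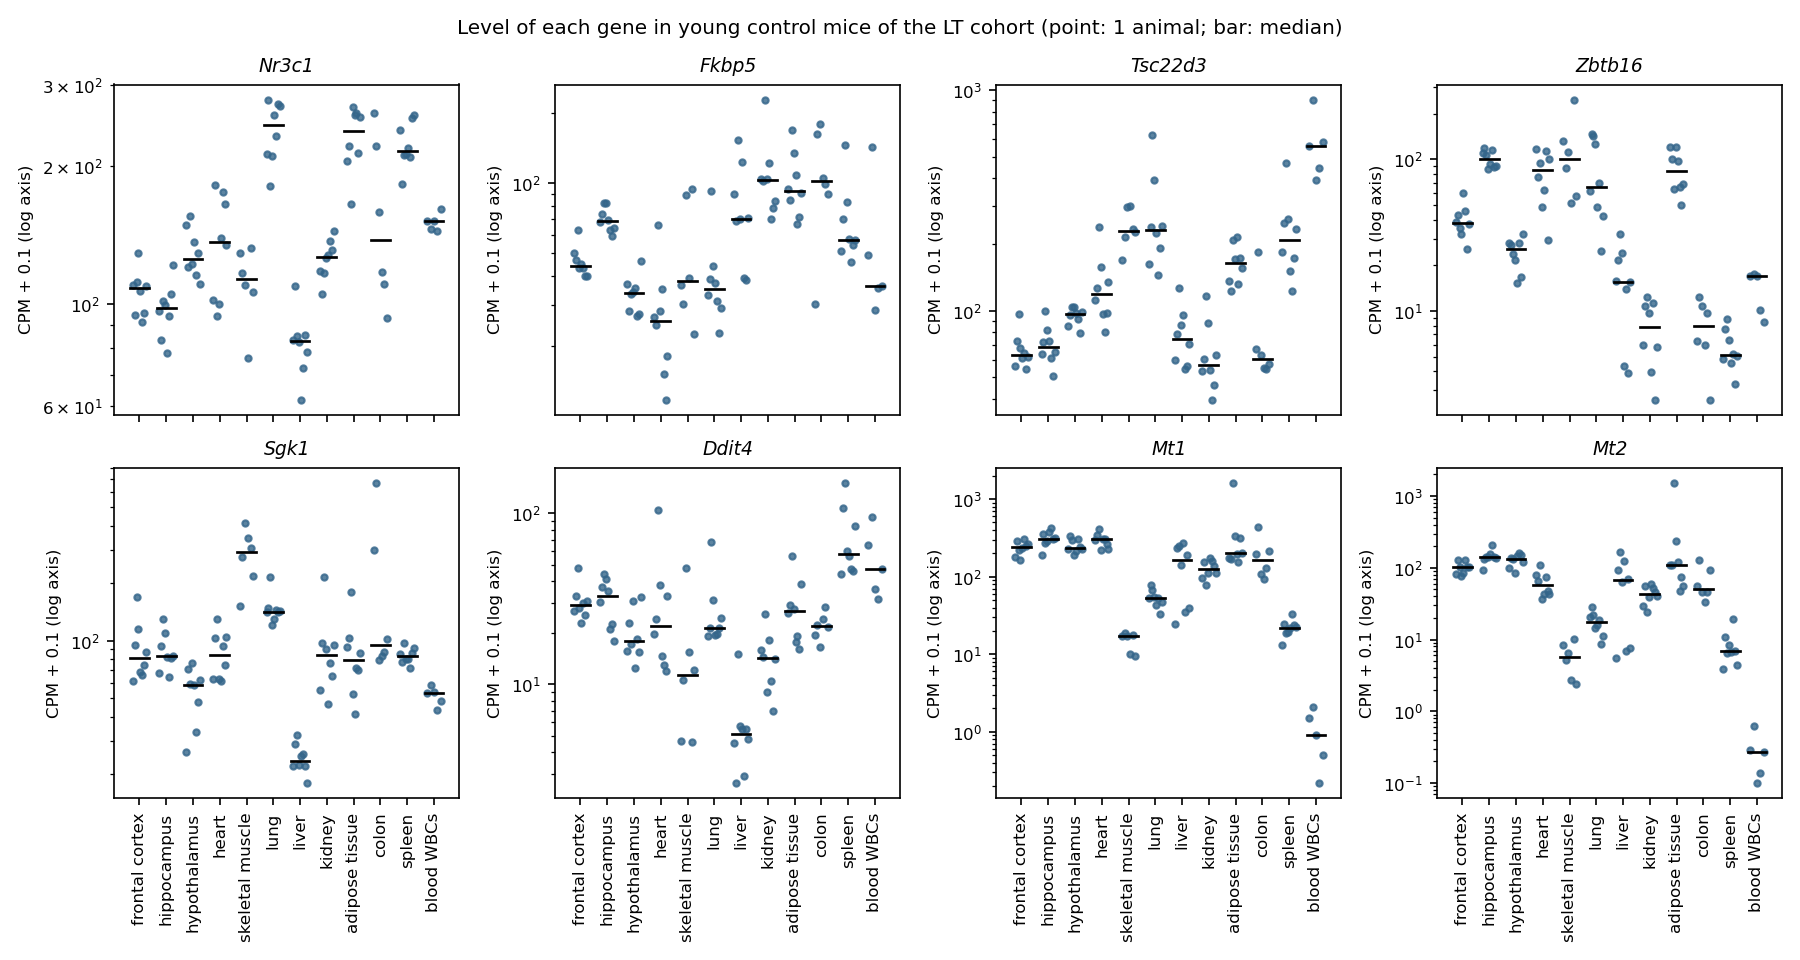
Level of each of the 8 genes in the 12 tissues of LT young controls, as CPM plus 0.1 on a log axis; each point is 1 animal and each bar a median. Nr3c1 covers the narrowest range, from 82.9 CPM in liver to 246 in lung, while Mt1 and Mt2 fall to 0.823 and 0.169 CPM in white blood cells.

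The controls of the other cohorts, whose counts rest on another annotation table and were scaled separately, gave the same leading tissue for Sgk1, Tsc22d3 and Mt1. Skeletal muscle was highest for Sgk1 in YA controls (median 195 CPM) and ST young controls (219), and white blood cells were highest for Tsc22d3 (194 and 229). Hippocampus was highest for Mt1 (504 and 184). Mt2 was highest in hippocampus of YA controls (214) and in adipose tissue of ST young controls (97.0). The YA hippocampus values of Mt1 (141 to 961 CPM) and Mt2 (73.0 to 344 CPM) overlapped those of hypothalamus. Length trends of these YA hippocampus libraries ran from -0.197 to 0.435. Ddit4 was highest in colon of YA controls (47.4) and in hippocampus of ST young controls (39.7). Nr3c1 was highest in adipose tissue (138 and 190.0), which came after lung in LT, and lung was not among the tissues of these cohorts. Zbtb16 was highest in skeletal muscle of YA controls (92.5 CPM) and in hippocampus of ST young controls (151). For Fkbp5 it was colon in both, with 79.7 and 74.4 CPM, and kidney and liver were not among the tissues of these cohorts.

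The first comparison asked how the 8 genes differ between aged and young controls of the LT cohort. Of 95 tests of a gene in a tissue, 15 rose and 2 fell with age at an adjusted p under 0.05 (edgeR's quasi-likelihood test with Benjamini-Hochberg adjustment), which is 17.9% of the tests against 13.6% of tests over all genes. The median log2 fold change over the 95 tests was 0.41, against -0.01 over all genes, and no called gene had groups that did not overlap at all. Zbtb16 rose in 5 tissues, Sgk1 in 4, Mt1 in 2 and Fkbp5, Tsc22d3, Ddit4 and Mt2 in 1 each, while Sgk1 and Nr3c1 each fell in colon. The tissues came from the same animals, so calls in different tissues are not independent. The p-values set the difference between groups against the spread between animals.

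**Figure D2:**
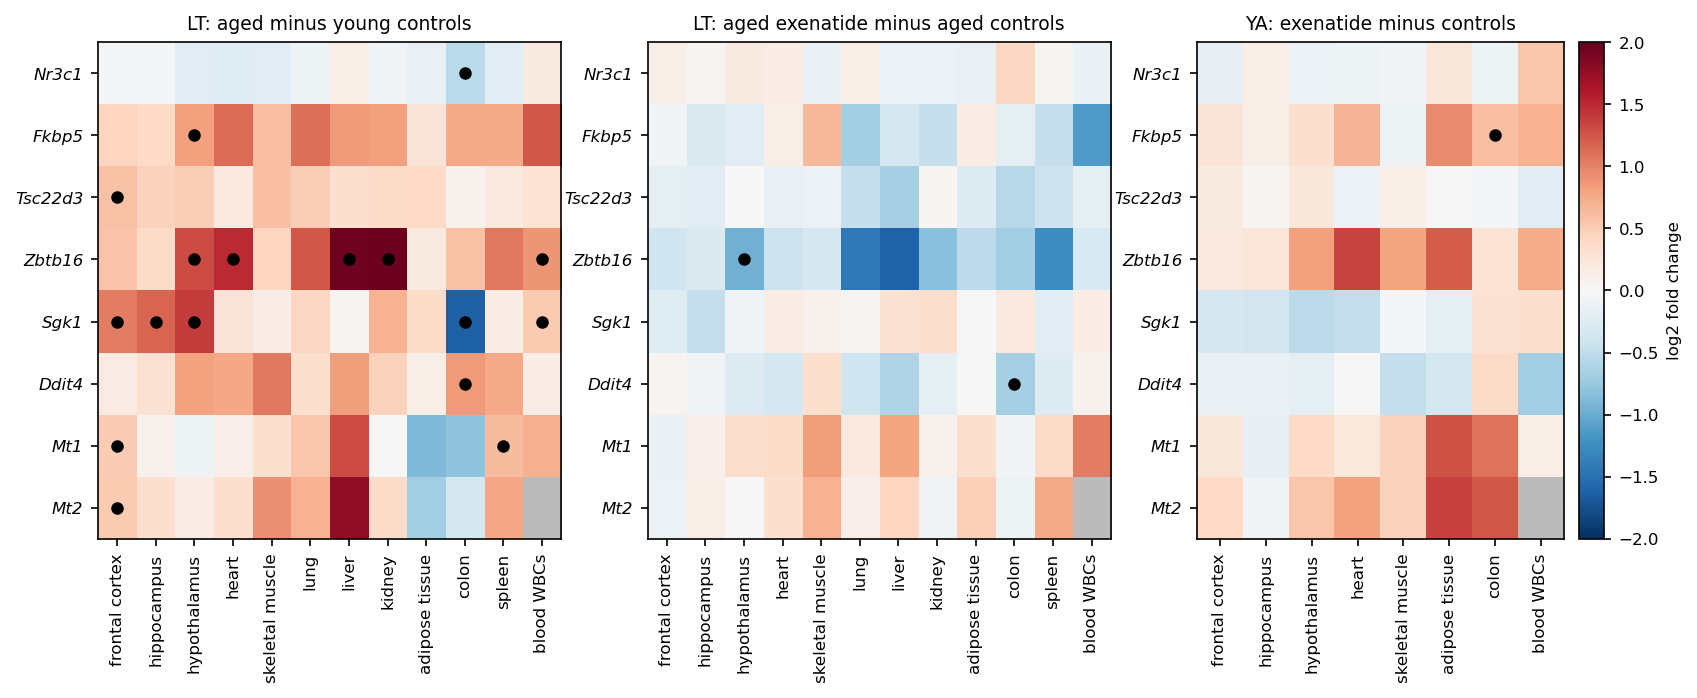
Log2 fold change of each gene (rows) in each tissue (columns) for LT age, LT exenatide and YA exenatide, with a black dot where the adjusted p was under 0.05 and grey where the gene was not tested. Fkbp5, Tsc22d3, Zbtb16 and Ddit4 lie above 0 in all 12 tissues of the age panel, and Zbtb16 lies below 0 in all 12 of the LT exenatide panel and above 0 in all 8 of the YA panel.

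Zbtb16, the PLZF gene, had the largest rises. In heart its level was 54.4, 243 and 347 CPM (lowest, median and highest of 9 aged controls) against 29.3, 85.3 and 118 in 8 young controls, so that 8 of 9 aged hearts lay above every young heart. The log2 fold change was 1.498 with a standard error of 0.33 (adjusted p = 0.00432, edgeR's quasi-likelihood test with Benjamini-Hochberg adjustment). In hypothalamus the aged controls held 28.3, 68.6 and 79.2 CPM and the young ones 15.2, 25.4 and 32.2, with 1 aged animal inside the young range (log2 fold change 1.31, standard error 0.26, adjusted p = 0.00569 by the same edgeR test).
Kidney and liver had 3 aged animals each near the young level and 6 far above it. Kidney values were 7.46, 28.8 and 54.8 CPM in aged and 2.49, 7.77 and 12.3 in young controls, a log2 fold change of 1.96 (standard error 0.57). Liver values were 10.9, 69.9 and 157 CPM against 3.77, 15.5 and 31.9, a log2 fold change of 1.94 (standard error 0.55). The low aged animals carried the same codes in both organs (B15, B16 and B41). The edgeR adjusted p-values were 0.0351 and 0.0433, and leaving out any 1 of 10 animals in either tissue put them above 0.05. In white blood cells the 5 aged values were 11.1, 22.5, 27.4, 29.9 and 37.7 CPM and the 5 young values 8.30, 10.1, 16.9, 16.9 and 17.4 (log2 fold change 0.88, edgeR adjusted p = 0.0341, lost without any 1 of 5 animals). The remaining 7 tissues had log2 fold changes from 0.18 in adipose tissue to 1.24 in lung and were not called.

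Sgk1, the kinase gene, rose in all 3 brain regions. Hippocampus had 83.6, 193 and 290.3 CPM in 9 aged controls and 64.7, 82.7 and 129.6 in 8 young controls, and 7 aged animals lay above all young ones (log2 fold change 1.16, standard error 0.23, adjusted p = 0.0185, edgeR's quasi-likelihood test with Benjamini-Hochberg adjustment). Frontal cortex had 77.2, 213 and 251 CPM against 61.3, 81.2 and 169 (1.03, standard error 0.27, n = 8 and 8, edgeR adjusted p = 0.0250). Hypothalamus had 46.8, 157 and 251 CPM against 25.9, 58.8 and 75.9 (1.40, standard error 0.37, edgeR adjusted p = 0.0285). Animal B15 was the lowest or second lowest aged control in each region. These calls were lost without either of 2 animals in hippocampus (B24 or A56), any 1 of 4 in frontal cortex (B24, B34, A51 or A56) and any 1 of 6 in hypothalamus (B19, A51, A53, A55, A56 or A57). White blood cells also rose, from 43.3, 48.4, 53.2, 53.9 and 58.5 CPM in young to 57.6, 66.9, 71.9, 81.5 and 94.2 in aged controls (0.53, edgeR adjusted p = 0.0197, lost without B34, A57 or A58).
Sgk1 in colon went the other way, with 35.7, 59.5 and 132 CPM in 9 aged against 79.02, 94.3 and 671 in 6 young controls. Its log2 fold change of -1.63 (standard error 0.44, edgeR adjusted p = 0.0179) rested on 2 young libraries, A53 at 671 and A52 at 297 CPM. Without A53 it was -0.84 and without A52 it was -1.45, and neither passed. Nr3c1 fell in the same tissue by 0.54 on the log2 scale (edgeR adjusted p = 0.0440), from 93.1, 138 and 261 CPM to 89.1, 115 and 140.0. Its 2 highest young libraries were again A52 and A53, the value was -0.34 without A52, and leaving out any 1 of 17 of 23 animals ended the call. The summed adipocyte markers of these colons ran from 20.2 to 224 CPM in young and from 19.2 to 54.5 in aged controls, with 4 of 6 called lower, and their part in the result was not tested.

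**Figure D3:**
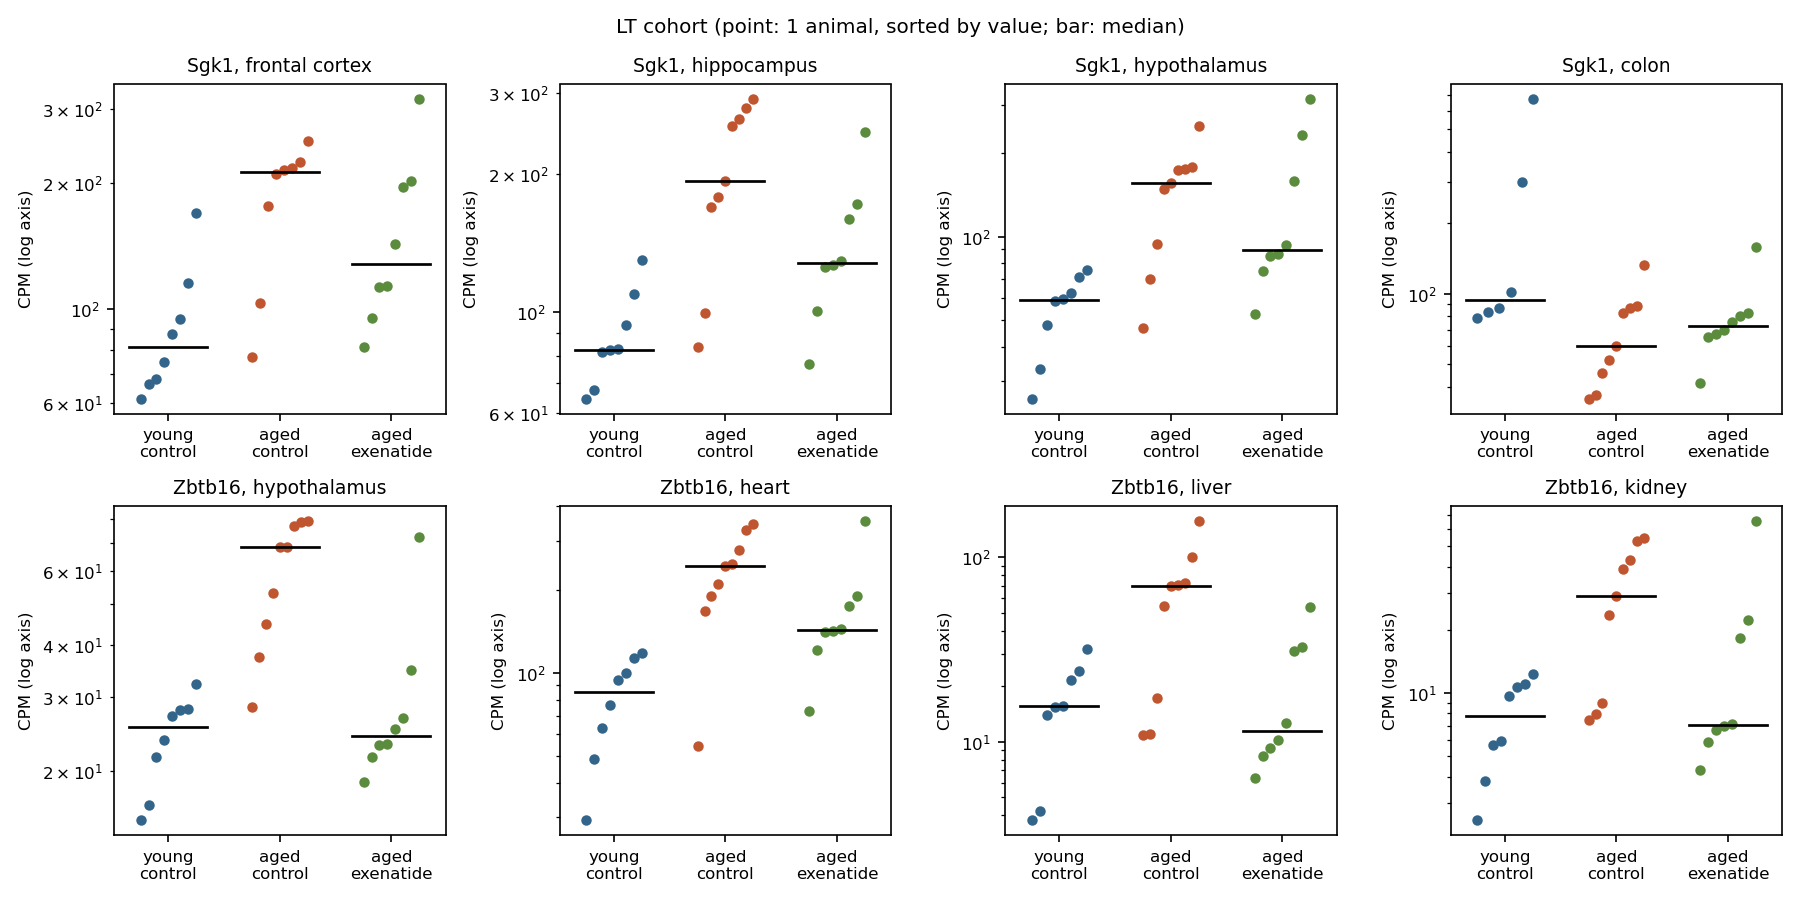
CPM on a log axis of Sgk1 and Zbtb16 in 4 tissues each for the 3 LT groups (young, aged, aged with exenatide); each point is 1 animal, sorted within its group, and each bar a median. In hypothalamus the Zbtb16 medians were 25.4, 68.6 and 24.2 CPM in that order, and the Sgk1 colon values of 297 and 671 CPM stand alone among the young controls.

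The metallothionein genes rose together in frontal cortex and Mt1 rose in spleen. Frontal cortex Mt1 was 227, 367 and 477 CPM in 8 aged and 166, 240.5 and 303 in 8 young controls (log2 fold change 0.51, standard error 0.10, adjusted p = 0.00411, edgeR's quasi-likelihood test with Benjamini-Hochberg adjustment). Frontal cortex Mt2 was 109, 147 and 208 CPM against 76.9, 103 and 130.3 (0.53, standard error 0.12, edgeR adjusted p = 0.00808). No single animal ended either call. Spleen Mt1 moved from 13.2, 21.9 and 32.9 CPM to 20.5, 33.5 and 44.8 (0.64, edgeR adjusted p = 0.0334), a call lost without any 1 of 11 animals and at 0.46 after removal of the length and GC trend. Summed B cell markers in these spleens were 10510 to 17240 CPM in aged and 5821 to 8644 in young controls. Of the 6 markers 2 were called higher and 1 lower, with a median log2 fold change of 0.007. Their part in the Mt1 value was not tested. Adipose tissue and colon had Mt1 log2 fold changes of -0.88 and -0.80 that were not called.
Ddit4, the REDD1 gene, rose in colon from 16.3, 21.7 and 28.2 CPM (n = 6) to 25.96, 32.9 and 59.6 (n = 9), with 1 aged animal inside the young range. The log2 fold change was 0.85 with a standard error of 0.19 (edgeR adjusted p = 0.00679), and it was 0.57 and still called after removal of the length and GC trend. Within batches it was 0.70 (batches 1 and 2) and 1.06 (batch 3), with neither called. Fkbp5 rose in hypothalamus from 26.7, 33.9 and 46.5 CPM to 41.3, 62.6 and 84.8 (0.82, standard error 0.23, edgeR adjusted p = 0.0365). Leaving out any 1 of 11 animals, or removing the trend (0.76), put that p above 0.05. In the other 11 tissues its log2 fold changes were positive, from 0.26 in adipose tissue to 1.24 in white blood cells, and were not called. Tsc22d3 rose in frontal cortex from 54.4, 63.1 and 96.6 CPM to 69.4, 96.0 and 128 (0.58, edgeR adjusted p = 0.0293, lost without any 1 of 5 animals), and its other 11 values lay between 0.08 and 0.60.

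Most LT tissues had been sequenced in 2 batches, and the age contrast was refitted within them. Batches 1 and 2 alone gave 27 calls, 26 of them upward, and batch 3 alone gave 2. These counts hold the tissues of a single batch at their main values: white blood cells in the first and liver in the second. The 2 calls in batch 3 were Zbtb16 in liver, not refitted, and Nr3c1 in colon (-0.82). Each refit used fewer animals than the full fit. Of the 16 age and exenatide calls that could be refitted, 11 held in batches 1 and 2 and 1 held in batch 3, and none changed sign. Zbtb16 in heart was 1.91 in batches 1 and 2 and 0.86 in batch 3, Zbtb16 in kidney 2.54 and 0.92, and Sgk1 in hypothalamus 1.43 and 1.41. Sgk1 in colon was -0.72 outside batch 3 and -2.95 within it, with neither called.

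A list of 30 other genes known to respond to glucocorticoids gave 51 rises and 8 falls in 328 tests, with a median log2 fold change of 0.30. In hypothalamus 10 of 26 rose and 0 fell, where 7.09% of all genes were called, and in frontal cortex 7 of 26 rose and 0 fell, where 5.74% were called. The 4 smallest adjusted p-values in tissues where one of the 8 genes was called belonged to Htra1, a secreted serine protease, in hypothalamus (0.78), Lcn2, an iron-binding protein of injured tubules, in kidney (1.93), Plin4, a lipid droplet coat protein, in frontal cortex (2.33) and Map3k6, a stress kinase, in liver (1.54). Colon, where Ddit4 rose and Sgk1 and Nr3c1 fell, had 4 rises and 2 falls among 28, with 14.4% of all genes called. Genes of the receptor's own machinery and hormone metabolism rose in 29 and fell in 13 of 219 tests. Hsd11b1 and Hsd11b2, the enzymes that form and inactivate the active steroid, fell in kidney by 1.01 and 0.49 on the log2 scale.
Other lists gave 12 rises and 1 fall in 66 tests of acute phase genes (Saa3 in colon, 3.47), 10 rises and 2 falls in 104 tests of immediate early genes (Fosb in hypothalamus, 1.11), and 16 rises and 9 falls in 119 tests of amino acid stress genes (Chac1 in colon, 2.85). Clock genes gave 9 rises and 18 falls in 165 tests, with Dbp in frontal cortex at -0.64, and zinc transport genes 6 and 5 in 70. Over all genes 13.6% of the tests of this contrast were called. Markers of other cells moved in the tissues where Zbtb16 rose. Of all genes, 17.9% were called in heart, 7.45% in kidney, 4.5% in liver, 27.7% in white blood cells and 7.09% in hypothalamus. Summed B cell markers in kidney were 179 to 956 CPM in aged and 18.3 to 50.5 in young controls (4 of 6 called higher), and 5 of 6 macrophage markers were called higher there (103 to 269 against 81.5 to 124 CPM). T and NK cell markers were called higher in kidney (5 of 6, 4.96 to 18.7 against 3.13 to 6.74 CPM) and in heart (4 of 6, 3.18 to 11.1 against 1.89 to 3.35 CPM). They were also called higher in liver (3 of 6, 3.51 to 17.0 against 3.55 to 6.05 CPM) and in white blood cells (2 of 6, 556 to 1227 against 432 to 560 CPM). In white blood cells 4 of 6 neutrophil markers were higher (3485 to 9430 against 1199 to 4579 CPM). Of 6 B cell markers there, 4 were lower and 1 higher. In hypothalamus 3 of 6 oligodendrocyte markers were lower (4763 to 8226 against 5176 to 8413 CPM). No marker of these lists was at 0 in these groups, and their part in the gene values was not tested.

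The second comparison set aged mice given exenatide against the same LT aged controls, so it shares those animals with the age contrast and the values are given side by side only. Of 95 tests, 0 rose and 2 fell, 2.11% of the tests against 4.92% over all genes. Ddit4 in colon was 17.7, 24.2 and 33.5 CPM in 8 treated mice and 25.96, 32.9 and 59.6 in 9 aged controls, with 5 treated animals below every control. The log2 fold change was -0.67 with a standard error of 0.17 (adjusted p = 0.0151, edgeR's quasi-likelihood test with Benjamini-Hochberg adjustment), and it was -0.29 and no longer called after removal of the length and GC trend. It was -0.46 in batches 1 and 2 and -0.95 in batch 3, with neither called. The treated colon library of animal B30 (19.7 CPM) has a broader tissue word, gastrointestinal tract, in one of its labels, and without it the value was -0.63 and still called. Zbtb16 in hypothalamus was 18.7, 24.2 and 72.6 CPM in treated mice and 28.3, 68.6 and 79.2 in aged controls (-0.96, standard error 0.26, edgeR adjusted p = 0.0364). In hypothalamus 6 treated animals lay below every control, and animal B40 alone stood among the upper controls. That call was lost without any 1 of 10 animals and at -0.86 after removal of the trend.

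Zbtb16 had a negative log2 fold change in all 12 tissues, from -0.29 in hippocampus to -1.61 in liver, of which the hypothalamus alone passed. Liver held 6.34 to 53.4 CPM in treated mice against 10.9 to 157 in aged controls, and kidney 4.304 to 65.9 against 7.46 to 54.8. Animal B36 was the highest treated animal in heart, kidney and liver. Tsc22d3 was negative in 10 of 12 tissues (-0.67 to 0.04) and Fkbp5 in 9 of 12 (-1.14 to 0.64), with none called. Mt1 was positive in 10 of 12 tissues, up to 1.03 in white blood cells, and Nr3c1 ranged from -0.14 to 0.42, none called. The 30 other responsive genes gave 5 rises and 3 falls in 328 tests, with a median of -0.09. In colon, where Ddit4 fell, 4 of 10 genes of amino acid stress fell and 0 rose, with 12.1% of all genes called there: Chac1 (-2.37), Atf4 (-1.05), Ddit3 (-0.97) and Trib3 (-2.50). Over all tissues that list gave 6 rises and 6 falls in 119 tests. The co-chaperone gene Fkbp4, whose product carries the hormone-bound receptor toward the nucleus, fell there too (-0.64).

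In the YA cohort exenatide was compared with controls in 8 tissues. Of 63 tests 1 passed and none fell, 1.59% against 0.631% over all genes. That 1 call lay in colon, which also held most of the 798 calls over all genes. There 347 genes rose and 449 fell of 17258 tested, a share of 4.61%. The gene was Fkbp5 in colon, with 107, 124 and 157 CPM in 8 treated and 60.9, 79.7 and 102 in 8 control mice, and the groups did not overlap. The log2 fold change was 0.60 with a standard error of 0.10 (adjusted p = 0.00498, edgeR's quasi-likelihood test with Benjamini-Hochberg adjustment), and the call held under every alternative run and without each animal in turn. Summed B cell markers of these colons were 181, 396 and 1394 CPM (lowest, median and highest) in treated and 1110, 1717 and 3251 in control mice, with 1 of 6 called lower, and 1 of 6 macrophage markers was lower. No such marker was at 0, and their part in the Fkbp5 value was not tested. At an unadjusted p under 0.05 there were 25 tests, 22 of them upward, against 9.38% over all genes, and DESeq2 called 4.

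Zbtb16 was positive in all 8 YA tissues, from 0.20 in frontal cortex to 1.34 in heart, and Fkbp5 in 7 of 8, up to 0.94 in adipose tissue. Mt1 and Mt2 had their largest values in adipose tissue (1.27 and 1.37) and colon (1.08 and 1.24). Sgk1 was negative in 6 of 8 tissues and reached -0.53 in hypothalamus, and Nr3c1 lay between -0.17 and 0.54. None of these passed. In colon the other responsive genes Sult1a1, a sulfotransferase (0.68), and Tat, which breaks down tyrosine (0.79), rose, the only called ones of 209 tests over all tissues. Abcb1a, an efflux pump that carries corticosteroids, rose (0.66), and the stress genes Asns (-0.60) and Atf4 (-0.30) fell in colon.

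The ST cohort had 5 mice per group in hippocampus, and most calls fell there: 5 of the 7 age calls, 5 of the 7 exenatide calls, 5 of the 10 rapamycin calls and all 7 calls of exenatide within knockdown. The groups also differed in technical measures. The trend on transcript length was above 0 in every aged control (0.0106 to 0.0844), below 0 in every exenatide (-0.0773 to -0.0501), rapamycin (-0.0503 to -0.0258) and young library (-0.0432 to -0.0143), and between -0.0372 and 0.0024 with exenatide and knockdown. With knockdown alone it ran from -0.00066 to 0.2078 (median 0.0891), with animal E8 alone of that group beyond 0.2. Median total counts were 24.1 M in aged controls, 27.1 with knockdown, 31.3 with exenatide and knockdown, 33.5 with rapamycin, 38.8 with exenatide and 43.2 in young controls. In this region 26% of all genes were called for age, 28.6% for exenatide, 27.6% for rapamycin and 31.3% for exenatide within knockdown. Values after removal of the length and GC trend are therefore given beside each call. The age, exenatide, rapamycin and knockdown contrasts share the 5 aged controls.

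**Figure D4:**
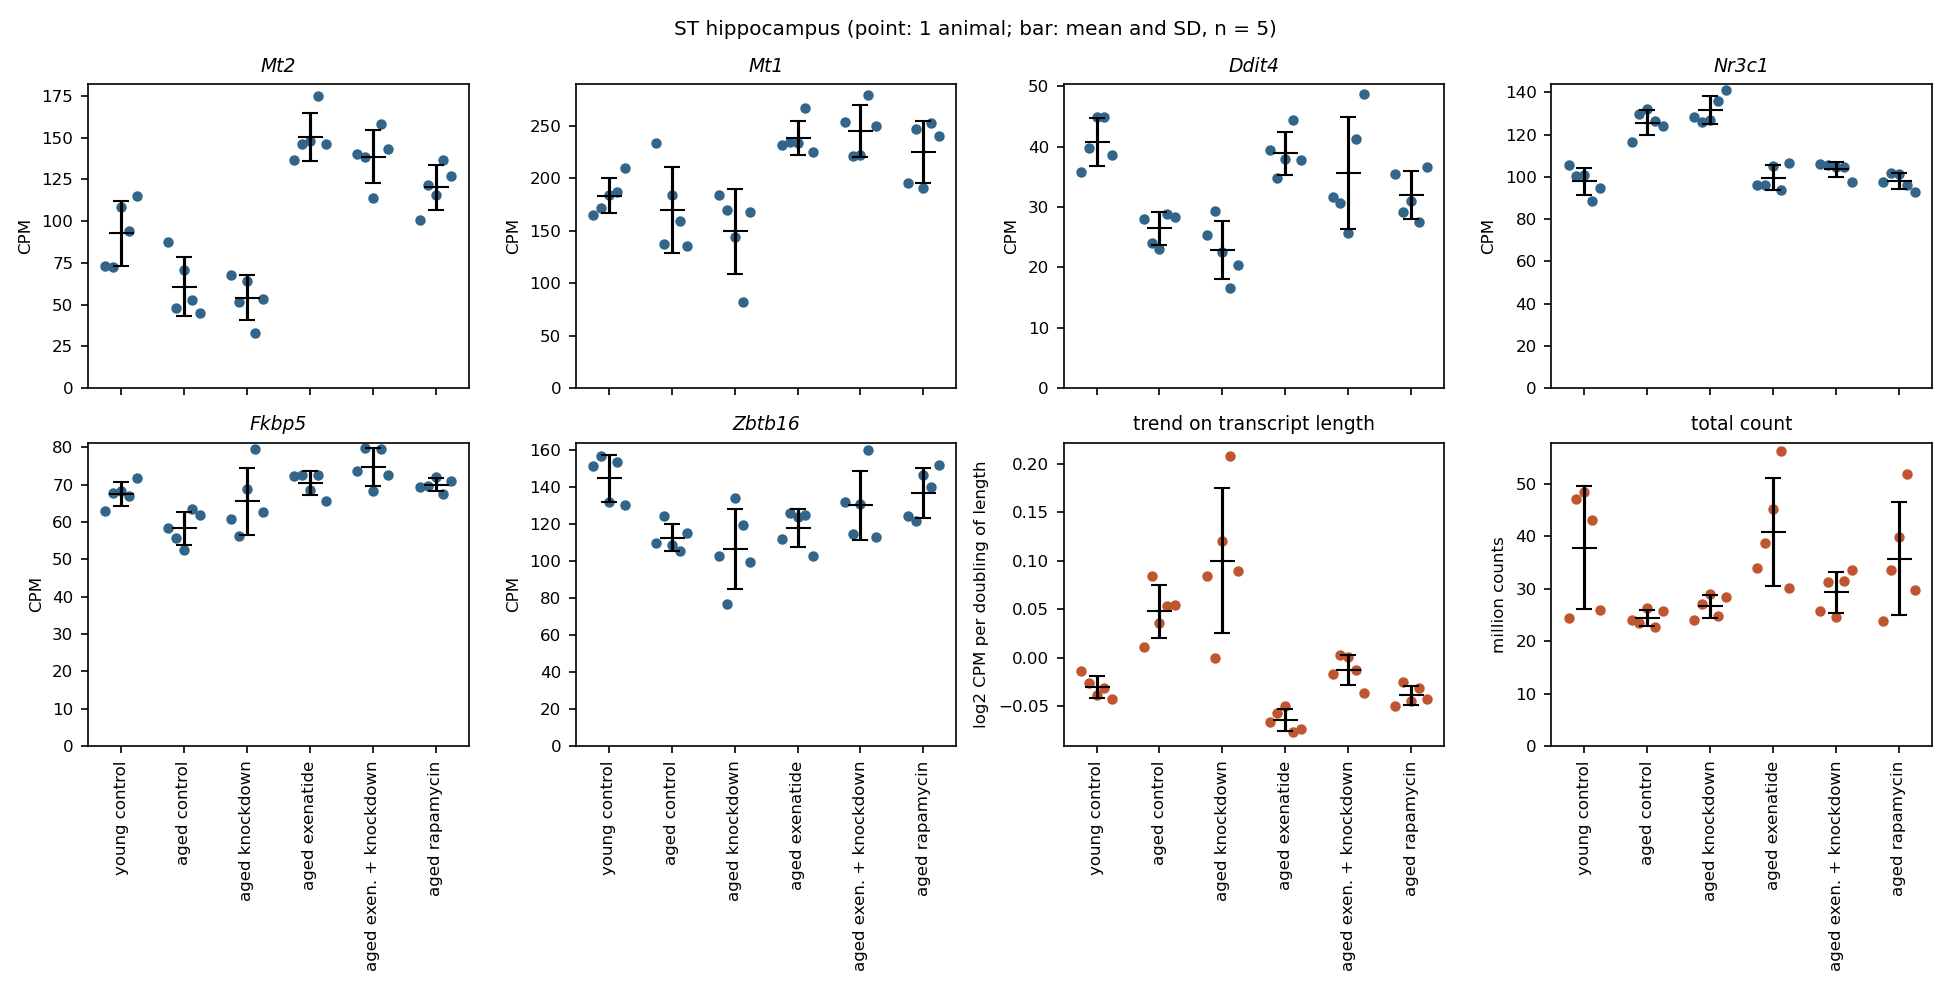
CPM of 6 genes in ST hippocampus by group, with the length trend and total count of each library in the last panels; points are animals, and bars are the mean and SD (n = 5). Mt2 lies between 45.2 and 87.3 CPM in aged controls and between 136 and 175 with exenatide, while the length trend is above 0 in all aged controls and below 0 in all exenatide libraries.

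Mt2 had the largest hippocampal rise of the 8 genes. It was 72.7, 73.1, 93.8, 109 and 115 CPM in young controls, 45.2, 48.2, 52.5, 70.7 and 87.3 in aged controls and 33.2, 51.8, 53.4, 64.4 and 67.4 with knockdown. With exenatide it was 136, 146, 146, 148 and 175 CPM, with exenatide and knockdown 114, 138, 140.1, 143 and 158, and with rapamycin 101, 115, 122, 127 and 137. Every treated animal lay above every aged control and every knockdown animal. The log2 fold change for exenatide was 1.31 (standard error 0.17, adjusted p = 2.81e-06, edgeR's quasi-likelihood test with Benjamini-Hochberg adjustment), 0.94 after removal of the trend. Rapamycin gave 0.99 (standard error 0.17, edgeR adjusted p = 0.000108; 0.65 after removal) and exenatide within knockdown 1.36 (standard error 0.17, edgeR adjusted p = 1.187e-06; 0.99 after removal). With age Mt2 fell by 0.61 on the log2 scale (edgeR adjusted p = 0.0102), which was -0.31 and not called after removal of the trend.

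Nr3c1 showed the opposite order, with narrow groups. It was 88.6, 94.7, 100.2, 101 and 105 CPM in young controls, 116, 124, 126, 130.0 and 132 in aged controls and 126, 127, 128, 136 and 141 with knockdown. Exenatide gave 93.8, 96.2, 96.2, 105 and 106 CPM, exenatide with knockdown 97.5, 104, 105, 106 and 106, and rapamycin 92.8, 96.1, 97.7, 101 and 102. The receptor transcript rose with age (log2 fold change 0.36, standard error 0.05, adjusted p = 3.628e-06, edgeR's quasi-likelihood test with Benjamini-Hochberg adjustment). It fell with exenatide by 0.34 (edgeR adjusted p = 9.076e-06), with rapamycin by 0.36 (3.294e-06 by the same edgeR test) and with exenatide within knockdown by 0.34 (4.802e-06). After removal of the length and GC trend these became 0.21, -0.16, -0.23 and -0.14, all still called, so the sizes shrank by more than 1.5 times in each.

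Fkbp5 moved by small amounts that the length trend left nearly as they were. It was 62.9, 66.9, 67.8, 68.4 and 71.9 CPM in young controls, 52.6, 55.7, 58.4, 61.8 and 63.5 in aged controls, 65.6, 68.7, 72.3, 72.6 and 72.7 with exenatide and 67.5, 69.4, 69.6, 71.0 and 72.0 with rapamycin. The groups given either drug lay above every aged control. Log2 fold changes were -0.21 with age (edgeR adjusted p = 0.0193, lost without animal E29 at -0.17 or A47 at -0.18), 0.27 with exenatide (0.00275) and 0.26 with rapamycin (0.00413), and -0.21, 0.27 and 0.28 after removal of the trend. Knockdown animals had 56.3, 60.8, 62.6, 68.8 and 79.4 CPM and those with both treatments 68.2, 72.4, 73.6, 79.5 and 79.9, a log2 fold change of 0.19 (edgeR adjusted p = 0.0300; 0.17 after removal of the trend and still called, lost without any 1 of 5 animals).
Ddit4 was 35.8, 38.5, 39.7, 44.9 and 44.9 CPM in young controls, 23.01, 23.98, 28.04, 28.3 and 28.8 in aged controls and 34.7, 37.8, 37.99, 39.5 and 44.5 with exenatide. It fell with age by 0.63 on the log2 scale (edgeR adjusted p = 0.00116; -0.43 after removal of the trend) and rose with exenatide by 0.56 (edgeR adjusted p = 0.00286; 0.33 and not called after removal). Knockdown gave 16.6, 20.3, 22.6, 25.4 and 29.3 CPM, and exenatide with knockdown 25.6, 30.7, 31.7, 41.3 and 48.7, a rise of 0.64 (edgeR adjusted p = 0.000754; 0.37 after removal). Aged and young controls did not overlap.
Mt1 was 135, 137, 159, 184 and 233 CPM in aged controls and 225, 232, 233, 234 and 267 with exenatide, a rise of 0.49 (edgeR adjusted p = 0.0167). That rise was lost without aged control E23 (0.43) and after removal of the trend (0.19). With rapamycin it was 191, 196, 239.8, 246 and 253 CPM, a rise of 0.41 (edgeR adjusted p = 0.0464), lost without any 1 of 16 animals and at 0.18 after removal. Within knockdown it went from 81.8, 144, 168, 169 and 184 CPM to 221, 222, 249.7, 253 and 279 with exenatide (0.71, edgeR adjusted p = 0.000721; 0.43 after removal and still called), with no overlap.
Zbtb16 fell with age in this region, from 129.9, 132, 151, 153 and 156 CPM to 105, 109, 109.7, 115 and 124 (-0.36, edgeR adjusted p = 0.0119; -0.35 after removal), with no overlap. It rose with rapamycin (0.28, edgeR adjusted p = 0.0472; 0.31 after removal, lost without any 1 of 7 animals) and with exenatide within knockdown (0.29, edgeR adjusted p = 0.0369; 0.27 after removal, lost without any 1 of 6). Tsc22d3 rose within knockdown from 24.2, 29.7, 36.4, 38.5 and 51.99 CPM to 41.2, 48.3, 48.4, 51.7 and 62.4 (0.48, edgeR adjusted p = 0.0221; 0.46 after removal and still called), and lost the call without E33 (0.38), E8 (0.35) or E9 (0.40). Sgk1 was called in no ST hippocampus contrast.

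Among the 30 other responsive genes in hippocampus, age gave 5 rises and 0 falls of 26, exenatide 7 and 7, rapamycin 1 and 7, and exenatide within knockdown 3 and 4. Foxo1, a transcription factor of fasting, had the same signs as the receptor gene, at 0.55 with age, -0.52 with exenatide, -0.48 with rapamycin and -0.60 with exenatide within knockdown, whereas Plin4 rose with exenatide (2.23). The receptor coactivator gene Ncoa2 had 0.35 with age, -0.33 with exenatide, -0.33 with rapamycin and -0.20 with exenatide within knockdown. Markers of other cells moved as well. In aged controls 4 of 6 macrophage markers were higher than in young controls (174 to 292 against 154 to 175 CPM), and 3 were lower with rapamycin than in aged controls (170.4 to 202.5 CPM). Astrocyte markers summed to 1704 to 2157 CPM in aged and 1394 to 1630 in young controls, with 2 of 6 called higher. Neutrophil markers summed to 12.01 to 21.4 CPM in aged controls, 8.061 to 9.755 in young controls and 8.91 to 11.47 with rapamycin, with 3 of the 4 tested called higher with age and 1 lower with rapamycin. With exenatide 2 of 6 oligodendrocyte markers were higher (6705 to 8355 against 5025 to 7618 CPM). None was at 0, and their part in the gene values was not tested.

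Outside hippocampus, Fkbp5 rose in frontal cortex with both drugs. It was 24.6, 25.05, 25.5, 25.7 and 27.8 CPM in aged controls, 36.3, 36.5, 38.1, 38.3 and 41.3 with exenatide and 29.8, 30.4, 34.2, 34.3 and 34.9 with rapamycin, so neither treated group overlapped the controls. The log2 fold changes were 0.57 (standard error 0.09, adjusted p = 0.00381, edgeR's quasi-likelihood test with Benjamini-Hochberg adjustment) and 0.35 (standard error 0.09, edgeR adjusted p = 0.00684), 0.55 and 0.30 after removal of the length trend, and both calls held under every alternative run. Length trends overlapped between these cortex groups (-0.0327 to 0.0543 in controls, -0.0923 to 0.0269 with exenatide and -0.0466 to -0.0052 with rapamycin). Summed astrocyte markers of this cortex were 974 to 1157 CPM with exenatide and 1163 to 1371 in aged controls, without overlap, though none of the 6 was called. With rapamycin, where 18.2% of all genes were called, the oligodendrocyte sum was 3300 to 4196 CPM against 4432 to 4835 (2 of 6 called lower). The T and NK cell sum was 5.28 to 9.648 CPM against 11.56 to 14.68. The part of these markers in the gene values was not tested. With knockdown the exenatide Fkbp5 value was 0.15 and not called, and the interaction of exenatide with knockdown was -0.42 (standard error 0.12), with an edgeR adjusted p of 0.183. Nr3c1 in frontal cortex was 161, 167, 178, 179 and 189 CPM in aged controls and 148, 150.02, 150.1, 154 and 155 with rapamycin (-0.21, edgeR adjusted p = 0.0231), and -0.01 and not called once the trend was removed.

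In heart, Nr3c1 was 76.5, 88.6, 126, 139 and 142 CPM in young controls, 161, 165, 169, 171 and 179.8 in aged controls and 79.7, 81.8, 87.6, 142 and 143 with rapamycin. It rose with age (log2 fold change 0.56, standard error 0.18, edgeR adjusted p = 0.0276, lost without E29 at 0.55, A42 at 0.50 or A46 at 0.46) and fell with rapamycin by 0.66 (standard error 0.18, edgeR adjusted p = 0.0125), with 0.24 and -0.35, both called, after removal of the length trend. Sgk1 fell with rapamycin, from 76.6, 83.3, 87.1, 94.1 and 124 CPM to 40.6, 47.6, 66.8, 68.0 and 72.9, with no overlap (-0.65, standard error 0.19, edgeR adjusted p = 0.0183, lost without E30 at -0.53). Summed macrophage markers of these hearts were 387 to 521 CPM in young, 594 to 1678 in aged and 424 to 1092 in rapamycin-treated mice. All 6 were called higher with age and 4 lower with rapamycin, where 24.6% and 23.3% of all genes were called. Neutrophil markers summed to 5.086 to 18.89 CPM in young, 24.53 to 43.43 in aged and 12.38 to 25.5 in rapamycin-treated hearts, with 5 of 6 called higher with age and 3 lower with rapamycin. Of 6 T and NK cell markers, 2 were higher with age and 2 lower with rapamycin. Endothelial markers summed to 626 to 766 CPM in aged and 768 to 866 in young hearts, with 2 of 6 called lower. The part of these markers in the Nr3c1 and Sgk1 values was not tested. In skeletal muscle Zbtb16 rose with exenatide from 53.7, 87.9, 88.1, 90.02 and 131 CPM to 89.4, 119, 151, 228 and 244 (0.88, standard error 0.27, edgeR adjusted p = 0.0215, lost without E19 at 0.70, E31 at 0.76 or E29 at 0.74). It was 1.15 and still called after removal of the trend, and 0.876 and not called with only the compared conditions. Length trends of these muscles ran from -0.0993 to 0.5847 in aged controls and from -0.0918 to 0.0524 with exenatide. There 5 of 6 endothelial markers were lower (52.5 to 104 against 144 to 183 CPM), where 18.4% of all genes were called. The part of these markers was not tested.
In white blood cells Ddit4 was 14.1, 16.7, 18.0, 20.3 and 23.1 CPM in aged controls and 7.58, 8.44, 10.7 and 12.8 in 4 rapamycin-treated mice. That fall of 0.90 on the log2 scale (edgeR adjusted p = 0.0248) was -0.50 and not called after removal of the length trend, and it was lost without any 1 of 5 animals. Mt1 in the same cells was 0.121, 0.121, 0.239, 0.279 and 0.424 CPM in young and 0.335, 0.641, 0.667, 2.22 and 6.04 in aged controls. Its log2 fold change of 3.06 (standard error 0.86, edgeR adjusted p = 0.0130) was 2.03 and not called without animal E23, and summed neutrophil markers were 3339 to 12530 CPM in aged and 1473 to 5512 in young controls.

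Over all ST tissues, 3 of 55 tests rose and 4 fell with age, against 13.6% called over all genes. Exenatide gave 6 rises and 1 fall against 8%, rapamycin 5 and 5 against 13.2%, and exenatide within knockdown 6 and 1 against 4.94%. All 7 calls of exenatide within knockdown lay in hippocampus, which also held 5810 of the 5848 calls over all genes in that contrast. There 31.3% of all genes were called. Knockdown alone gave 0 calls with edgeR and 0 with DESeq2, where 3.27% of all tests were called. Its 4 tests at an unadjusted p under 0.05 compare with 16.4% over all genes, and the smallest edgeR adjusted p was 0.0965, for Fkbp5 in frontal cortex. The interaction, which is the exenatide effect under knockdown minus that without it, also gave 0 calls with edgeR and 0 with DESeq2, where 2.41% were called. It had 4 tests at an unadjusted p under 0.05, against 12.8% over all genes, and a smallest edgeR adjusted p of 0.0954, for Nr3c1 in skeletal muscle. The other responsive genes gave 14 rises and 13 falls of 187 with age, 18 and 9 with exenatide, and 12 and 11 with rapamycin.

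The same animals gave several tissues, so the genes could be followed within animals. Log2 CPM was reduced by the mean of its condition and batch, and each gene was related between 2 tissues over the animals that had both (13 to 30 animals). Of 896 such relations 240 passed a two-sided permutation test within condition and batch after Benjamini-Hochberg adjustment, all 240 of them positive. Tsc22d3 passed in 62 of 115 tissue pairs, Fkbp5 in 51, Ddit4 in 38, Zbtb16 in 33, Sgk1 in 30, Mt2 in 15 of 91, Mt1 in 8 of 115 and the receptor gene Nr3c1 in 3. The median r was 0.61 for Tsc22d3, 0.63 for Fkbp5, 0.50 for Ddit4, 0.41 for Zbtb16, 0.40 for Sgk1, 0.28 for Mt2, 0.26 for Mt1 and 0.02 for Nr3c1. Over all genes the median r of a tissue pair was 0.042 at its middle and lay between -0.13 and 0.27. In the typical pair 1.19% of all genes had a higher r than Tsc22d3, 1.49% than Fkbp5 and 50.3% than Nr3c1. The 2 animals farthest from the median of the first tissue were then left out, and 150 relations passed.

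**Figure D5:**
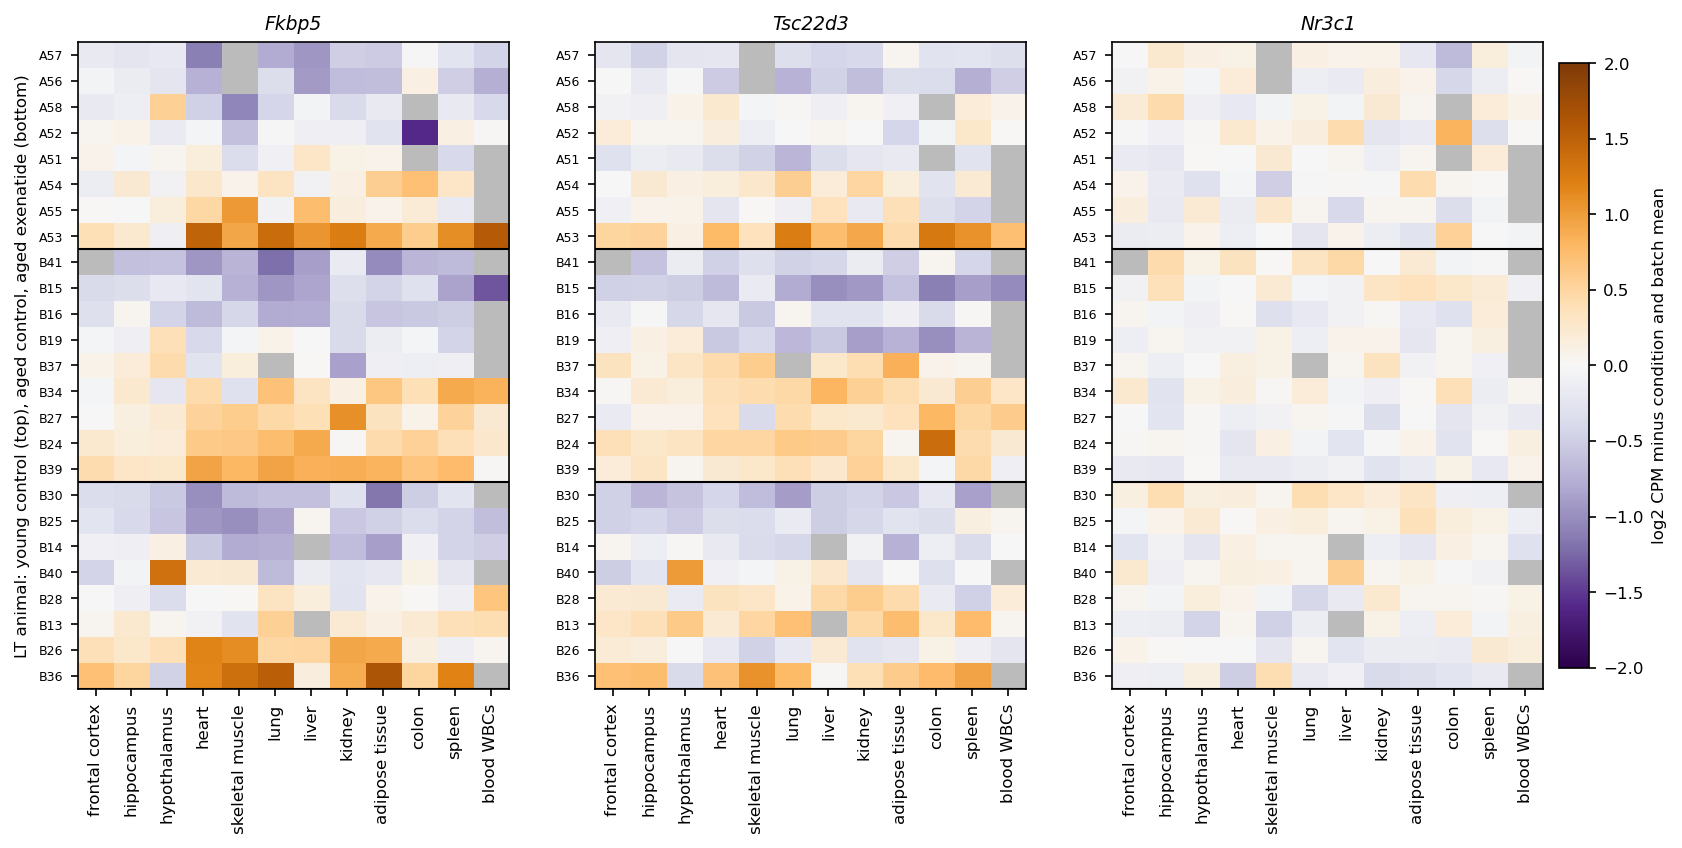
Deviation of log2 CPM from the mean of condition and batch for Fkbp5, Tsc22d3 and Nr3c1 in 25 LT animals (rows, ordered within each condition by their mean Fkbp5 value) and 12 tissues (columns); grey marks no library of that animal. Animals with high Fkbp5 are high in most tissues and in Tsc22d3 too, whereas the median r of Nr3c1 between LT tissues was 0.07.

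Examples from LT follow, chosen after their values were seen. Fkbp5 in heart and skeletal muscle of LT mice had r = 0.93 and rho = 0.97 (n = 23, permutation p = 1e-05 for each, the smallest these permutations can give, adjusted p = 0.000472), and r = 0.92 without the 2 farthest animals. Ddit4 in the same tissues had r = 0.95 and rho = 0.94 (permutation p = 1e-05 and 3e-05, adjusted p = 0.000472) and 0.93 without those animals. Tsc22d3 in heart and kidney had r = 0.93 and rho = 0.93 (n = 25, permutation p = 1e-05 for each, adjusted p = 0.000472) and 0.90 without them. Sgk1 in frontal cortex and kidney had r = 0.93 and rho = 0.88 (n = 24, permutation p = 1e-05 and 2e-05, adjusted p = 0.000472) and 0.89 without them. In LT, Fkbp5 passed in 39 of 66 pairs and Tsc22d3 in 44 of 66, in YA in 9 and 7 of 28, and in ST in 3 and 11 of 21. The animal labelled A53, a young control, was above its group mean for Fkbp5 in 11 of 12 tissues (-0.10 to 1.57 on the log2 scale). The aged control B15 was below it in all 12 for Fkbp5 (-1.36 to -0.20) and for Tsc22d3 (-1.10 to -0.16).

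Within a library, 2 of the genes were related over the animals of a tissue and cohort in 735 tests (n = 15 to 30), of which 200 passed the permutation test, 170 positive and 30 negative. The share of other gene pairs that would pass in these libraries was not computed, so the 200 is given without a background. Mt1 and Mt2 passed in all 24 tissue sets with a median r of 0.92, from 0.77 to 0.98. Ddit4 and Tsc22d3 passed in 19 of 27 sets (median r 0.63), Sgk1 and Tsc22d3 in 15 (0.68), Fkbp5 and Ddit4 in 14 (0.52), Fkbp5 and Tsc22d3 in 14 (0.62) and Fkbp5 and Zbtb16 in 11 (0.55). Mt1 and the other targets gave 3 of 27 sets for Mt1 and Fkbp5, 0 of 27 for Mt1 and Ddit4 and 6 of 27 for Mt1 and Tsc22d3. Nr3c1 had negative medians with all 7 of its responsive genes, from -0.52 with Ddit4 (11 of 27 sets called negative) to -0.02 with Zbtb16 (3 called positive and 2 negative). Without the 2 farthest libraries 108 relations passed, and without the 28 libraries that stand apart in the length trend 185 passed.

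Nr3c1 also moved with the length trend: its correlation with a library's trend averaged 0.65 over the 27 sets and was positive in all 27. The averages were -0.39 for Mt1, -0.37 for Mt2, -0.26 for Tsc22d3, -0.23 for Ddit4, 0.26 for Zbtb16, -0.08 for Sgk1 and 0.03 for Fkbp5. These are descriptions over libraries of the same cohort and tissue, whose total counts differed. The part of the length trend in the negative relations of Nr3c1 was not tested.
Among 10739 genes tested in all 27 sets, the 5 with the highest mean r to each gene were named. For Fkbp5 they were Zbtb16, Tsc22d3, Map3k6, Ddit4 and Bcl2l1 (mean r 0.53 for the first), 3 of them among the 8 genes. For Tsc22d3 they were Ddit4, Sgk1, Arrdc2, Fkbp5 and Klf2, for Ddit4 Tsc22d3, Cebpd, Arl4d, Arrdc2 and Nfkbia, and for Sgk1 Tsc22d3, Nfkbia, Errfi1, Ddit4 and Tob2. Zbtb16 had Map3k6, Fkbp5, Snrk, Lrrc8a and Klf9. The highest values for these were 0.59 (Ddit4 with Tsc22d3), 0.54 (Sgk1 with Tsc22d3) and 0.54 (Zbtb16 with Map3k6). Mt1 had Ctla2a, Eif1, Cyb5a, Prdx1 and Eci2, and Nr3c1 had Zyg11b, Zfp148, Taok1, Chm and Ube3a, the last 4 of which lay between 0.766 and 0.772. Mt2 was not tested in all 27 sets and has no such list.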

How the data were processed

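Bulk poly(A) RNA had been sequenced from RNAlater-kept tissue with a kit that, per the labels' protocols, is NEBNext Ultra II. The authors deposited whole-number counts per gene for LT, and estimated counts for YA and ST, where 7.21% and 7.37% of non-zero values were not whole and were rounded here. Per the submitters' processing notes the build was GRCm39 and FastQC 0.11.9 was used; the aligner and counter are not given in the sources used here. Genes that overlap on the other strand cannot be told apart unless the counting used strand, which is not stated.

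Counts were fitted per cohort and tissue over all conditions of the cohort with edgeR 4.0.16 in R 4.3.3 (TMM scaling, filterByExpr, robust quasi-likelihood), with batch as a covariate where an LT tissue had 2 batches. Benjamini-Hochberg adjustment ran over all genes within tissue and contrast, and calls needed an adjusted p under 0.05. The standard error is the log2 fold change divided by the root of its F statistic. Relations used log2 CPM with a prior count of 2 and 100000 two-sided permutations within condition and batch, adjusted over each family, in which 735 and 896 relations were computed. DESeq2 1.42.0, its size factors, no filter, only the compared conditions, batches apart, no batch term and each animal left out were alternatives. Removal of a trend on transcript length and GC content (splines with 4 degrees of freedom, over 88.6% to 94.4% of genes with a length), and leaving out the 28 libraries beyond 0.2, were chosen after seeing the data.

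Medians of total counts were 25.8 M in LT, 26.2 M in YA and 24.8 M in ST. The 8 genes and the other lists were chosen with earlier results of these data known. All calls of the 8 genes are named; per-animal values were planned for up to 4 calls per contrast, and more are printed. From each other list up to 4 genes with the smallest adjusted p in tissues with a call are named, and 5 alike genes per gene. Animals of the labels were paired by code across tissues; for 2 LT exenatide livers only the group was clear, so they enter no relation between tissues. On simulated counts with 2-fold changes, edgeR recovered 85% of changed genes in LT kidney (exenatide, 16220 genes), 84% in YA colon (17111) and 84% in ST hippocampus (rapamycin, 18411).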

Additional observations from a re-analysis of the deposited data

Results flagged for a closer look

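In 4 of 89 groups of 4 to 10 animals 1 animal lay far from the others by Dixon's ratio, where chance gives about 1 group in 20. Zbtb16 in heart of LT aged controls was 54.44 CPM in animal B16, against 167.9 to 346.6 in the other 8. Zbtb16 in hypothalamus of LT exenatide-treated mice was 72.6 CPM in animal B40, against 18.75 to 34.82 in the other 7. Mt1 in hippocampus of ST exenatide-treated mice was 266.9 CPM in animal E5, against 224.9 to 234.5 in the other 4. Nr3c1 in hippocampus of ST mice with exenatide and knockdown was 97.46 CPM in animal E34, against 104.5 to 106.1 in the other 4.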

How the results depend on the processing

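Of 51 calls, 17 held under every alternative run, and no single value changed sign. DESeq2 and its size factors lost 0 of 51, no filter 10, only the compared conditions 9 of 50, removal of the length and GC trend 11 of 51, and leaving out some animal 26. The 17 age calls in LT became 28 with DESeq2, 10 without a filter, 27 in batches 1 and 2 and 2 in batch 3. The batch counts hold white blood cells and liver, each of a single batch, at their main values. The 2 exenatide calls in LT became 0 in batch 3, 1 in batches 1 and 2, 1 with no batch term and 0 after removal of the trend. The 1 call in YA became 4 with DESeq2 and 2 after removal of the trend. Knockdown and the difference of exenatide effects each went from 0 to 1 without the libraries that stand apart, knockdown also with only the compared conditions, and exenatide within knockdown from 7 to 4 with only those. Without the 2 farthest samples, 240 relations between tissues became 150 and 200 within libraries 108. The cause of these changes was not tested.

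With 1 animal left out, the counts ranged from 9 to 22 for LT age (9 without A57, 10 without B24, 11 without B27, B34 or A51), 1 to 3 for LT exenatide (1 without any of 10 animals), 1 to 2 for YA exenatide (2 without A31 or A88), 6 to 8 for ST age, 6 to 9 for ST exenatide, 6 to 11 for rapamycin (6 without E30), 0 to 1 for knockdown (1 without E13, E21 or E9), 4 to 8 for exenatide within knockdown (4 without E33 or E9) and 0 to 1 for the difference (1 without E13). CPM without TMM scaling moved 1 of 96 levels by more than 1 SD. No paired analysis was possible because each animal is in 1 condition. Low counts limit Mt1 and Mt2 in white blood cells.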
